A study of Mus musculus with 76 samples.

Results

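Mitosis and kinetochore genes were examined in 76 single mouse iHPCs. The 61 members were rows of the deposited expression table chosen by gene name: 43 by the start of the name (the CENP, Aurora and Bub families, the B and A2 cyclins, the Ndc80 complex and the mitotic kinesins) and 18 by full name. The table listed 15192 genes, and 60 members reached 1 TPM in at least 1 cell. TPM is a share of transcripts scaled for gene length, so levels of different genes can be set side by side.

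Per the labels, iHPCs came from pluripotent stem cells in which Runx1, Hoxa9 and Hoxa10 were switched on together, and they engrafted C57BL/6 recipients and formed mature blood cells. The cells sequenced were taken from culture and sorted singly. They form 1 group with no control, and the labels tie no cell to a culture, clone or sort, so the group stands as 1 sample. Values are given over cells, with no p-value or standard error. Every cell reached between 2465 and 5992 genes at 1 TPM. All 11 listed genes of the pan-haematopoietic markers, such as Coro1a, were detected in at least 38 cells, while 4 of the 5 listed pluripotency markers, Pou5f1 among them, were listed at 0 in every cell. The 11 include Runx1, which was itself switched on in the stem cells.

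Cyclin B with Cdk1 drives a cell into mitosis, where the Aurora and Polo kinases build the spindle. Chromosomes attach to it through the kinetochore, a protein assembly that forms on nucleosomes holding the histone variant CENP-A, and the spindle checkpoint delays chromosome separation until all are attached. Most of these genes are transcribed late in the cell cycle, under the MuvB complexes, B-Myb, FoxM1 and NF-Y, and many of their mRNAs are low in G1. Blood progenitors range from resting to rapidly cycling cells.

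Many promoters of late cell cycle genes hold 2 short words: CCAAT, the word NF-Y binds, and TTTGAA, the usual form of the cell cycle genes homology region (CHR), to which MuvB complexes bind. The sequences of 6 members with differing values across the cells are shown: Cdca8 and Birc5, the pair with the highest Spearman rho across cells; Cdc20 and Ccnb2, among the highest single values; and Cenpa and Cenph, which lay at opposite ends in their relation to S phase genes. They were chosen after these values were seen. Each is the RefSeq sequence of the 250 bases before the transcript start in GRCm38.p6, on the strand of the gene, 5′ to 3′, with both words in capitals (ATTGG and TTCAAA are the same words on the other strand). Cdca8 lies at chr4:124936918-124937167 (minus strand), Birc5 at chr11:117848987-117849236 (plus), Cdc20 at chr4:118437344-118437593 (minus), Ccnb2 at chr9:70421555-70421804 (minus), Cenpa at chr5:30666636-30666885 (plus) and Cenph at chr13:100775900-100776149 (minus).
Cdca8: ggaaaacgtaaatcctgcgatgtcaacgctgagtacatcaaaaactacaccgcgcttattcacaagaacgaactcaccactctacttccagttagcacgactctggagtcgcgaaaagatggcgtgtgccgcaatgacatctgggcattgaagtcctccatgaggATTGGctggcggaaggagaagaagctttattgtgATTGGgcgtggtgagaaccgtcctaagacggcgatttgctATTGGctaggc
Birc5: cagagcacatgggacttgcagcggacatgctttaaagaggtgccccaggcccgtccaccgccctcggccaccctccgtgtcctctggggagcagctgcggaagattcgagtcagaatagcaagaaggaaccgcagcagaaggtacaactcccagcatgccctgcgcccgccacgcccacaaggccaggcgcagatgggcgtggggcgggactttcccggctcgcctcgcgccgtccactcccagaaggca
Cdc20: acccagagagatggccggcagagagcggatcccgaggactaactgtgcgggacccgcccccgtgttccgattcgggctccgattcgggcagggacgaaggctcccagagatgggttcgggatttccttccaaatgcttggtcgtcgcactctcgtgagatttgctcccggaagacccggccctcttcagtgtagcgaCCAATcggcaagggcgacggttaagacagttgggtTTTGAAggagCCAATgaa
Ccnb2: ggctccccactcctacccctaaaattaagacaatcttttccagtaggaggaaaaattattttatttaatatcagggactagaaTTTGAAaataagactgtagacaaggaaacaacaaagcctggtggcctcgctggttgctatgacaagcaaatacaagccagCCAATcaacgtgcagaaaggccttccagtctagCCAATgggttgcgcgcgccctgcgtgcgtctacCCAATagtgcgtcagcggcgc
Cenpa: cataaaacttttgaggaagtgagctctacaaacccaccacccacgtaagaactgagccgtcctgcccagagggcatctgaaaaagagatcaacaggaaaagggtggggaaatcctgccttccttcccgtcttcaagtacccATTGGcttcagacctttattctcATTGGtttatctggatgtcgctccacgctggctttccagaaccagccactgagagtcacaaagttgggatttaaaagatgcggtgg
Cenph: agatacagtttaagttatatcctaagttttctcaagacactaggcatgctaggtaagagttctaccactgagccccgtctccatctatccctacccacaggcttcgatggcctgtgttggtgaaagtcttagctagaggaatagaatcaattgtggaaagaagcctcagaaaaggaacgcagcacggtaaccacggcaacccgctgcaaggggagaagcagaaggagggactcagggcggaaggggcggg

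In the Cdca8 window, CCAAT lay on the other strand with first bases at -85, -51 and -11 from the start, and again at 19 beyond it, with TTTGAA at 14. Cdc20 had CCAAT at -53 and -8 and TTTGAA at -18 between them. Ccnb2 had 3 CCAAT words at -87, -54 and -21, at even steps, with TTTGAA at -167 and 5. Cenpa had CCAAT on the other strand at -109 and -86 and TTTGAA at 17. Cenph had a single CCAAT at 32, past the printed bases. Birc5 held neither word, unlike Cdca8.

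Both strands of the full 300-base windows (250 before and 50 after the start) were searched. The RefSeq table held 59 windows for 54 members, and in 48 of these the bases after the start lay in a transcript of the gene. The table held none for Ccna2, Aurkb, Incenp, Spc24, Kif20a, Tpx2 and Aurkaip1. CCAAT stood in 71.2% of the members' windows, against 38.2% of 9157 windows of other listed genes detected in at least 5 cells and 37.4% of all 32851 windows. More than one CCAAT stood in 44.1%, against 14.8% and 11.7%. TTTGAA stood in 59.3%, against 11.7% and 17.9%, and both words in 50.8%, against 4.70% and 6.95%. Among genes detected in at least 38 cells, CCAAT stood in 38.6% and TTTGAA in 11.6% of 3322 windows. The words were spread unevenly over the roles. Kinesins held TTTGAA in 9 of 10 genes and CCAAT in 6, whereas inner kinetochore genes held CCAAT in 10 of 14 and TTTGAA in 4 of 14. Neither Cenpv nor Cenpj, which belong to no mitotic role group, held a word. The windows were not matched on base composition, and a match describes letters, not binding.

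**Figure D1:**
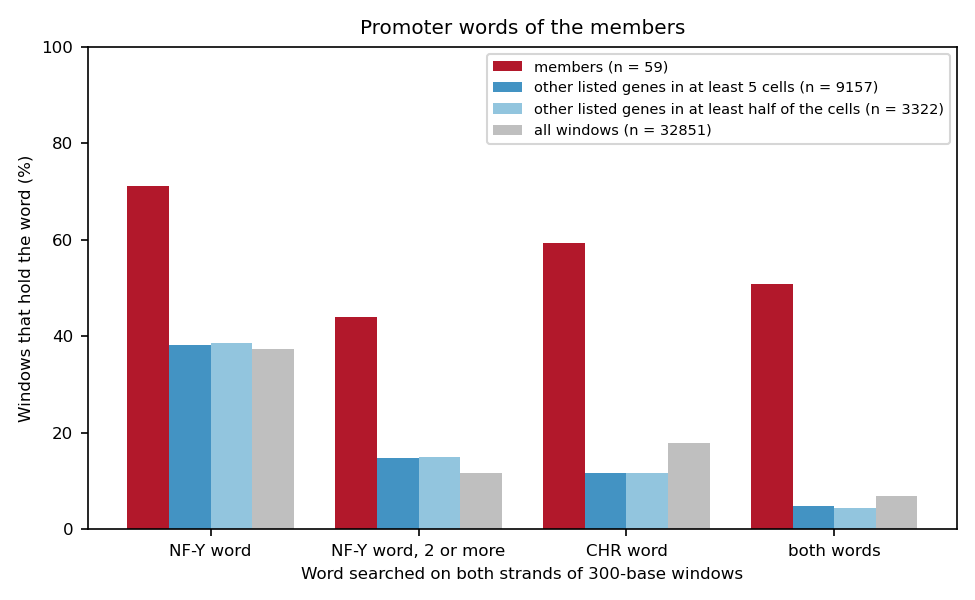
Share of 300-base promoter windows, in percent, that hold each word on either strand (NF-Y word, CCAAT; CHR word, TTTGAA); bars stand for the windows of members, of other listed genes by detection, and of all genes in the RefSeq table. Members hold the CHR word in 59.3% of windows, against 17.9% of all windows.

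Most members were found in a minority of cells. Detection means 1 TPM or more, and a second threshold of 10 TPM is given beside it, since many values lay between. Of the 61 members, 8 were detected in at least 38 of the 76 cells (13.1%), against 23.1% of all 15192 listed genes. At 10 TPM, 5 members were (8.20%), against 19.8% of all genes. The median member was detected in 17 cells (14 at 10 TPM), 36 members in fewer than 20 cells, and 46 members had a median of 0 TPM. Detection in fewer than 20 cells was not particular to the members. Outside them, only 5784 of the 15192 listed genes were found in at least 20 cells. A 0 in these data can be a missed transcript: Polr2a, the large subunit of RNA polymerase II, which every cell uses, was detected in 22 cells, and Tbp in 36. Longer genes were found in fewer cells, with a Spearman rho of -0.41 between transcript length and cells over the 61 members and -0.30 over 10942 listed genes.

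**Figure D2:**
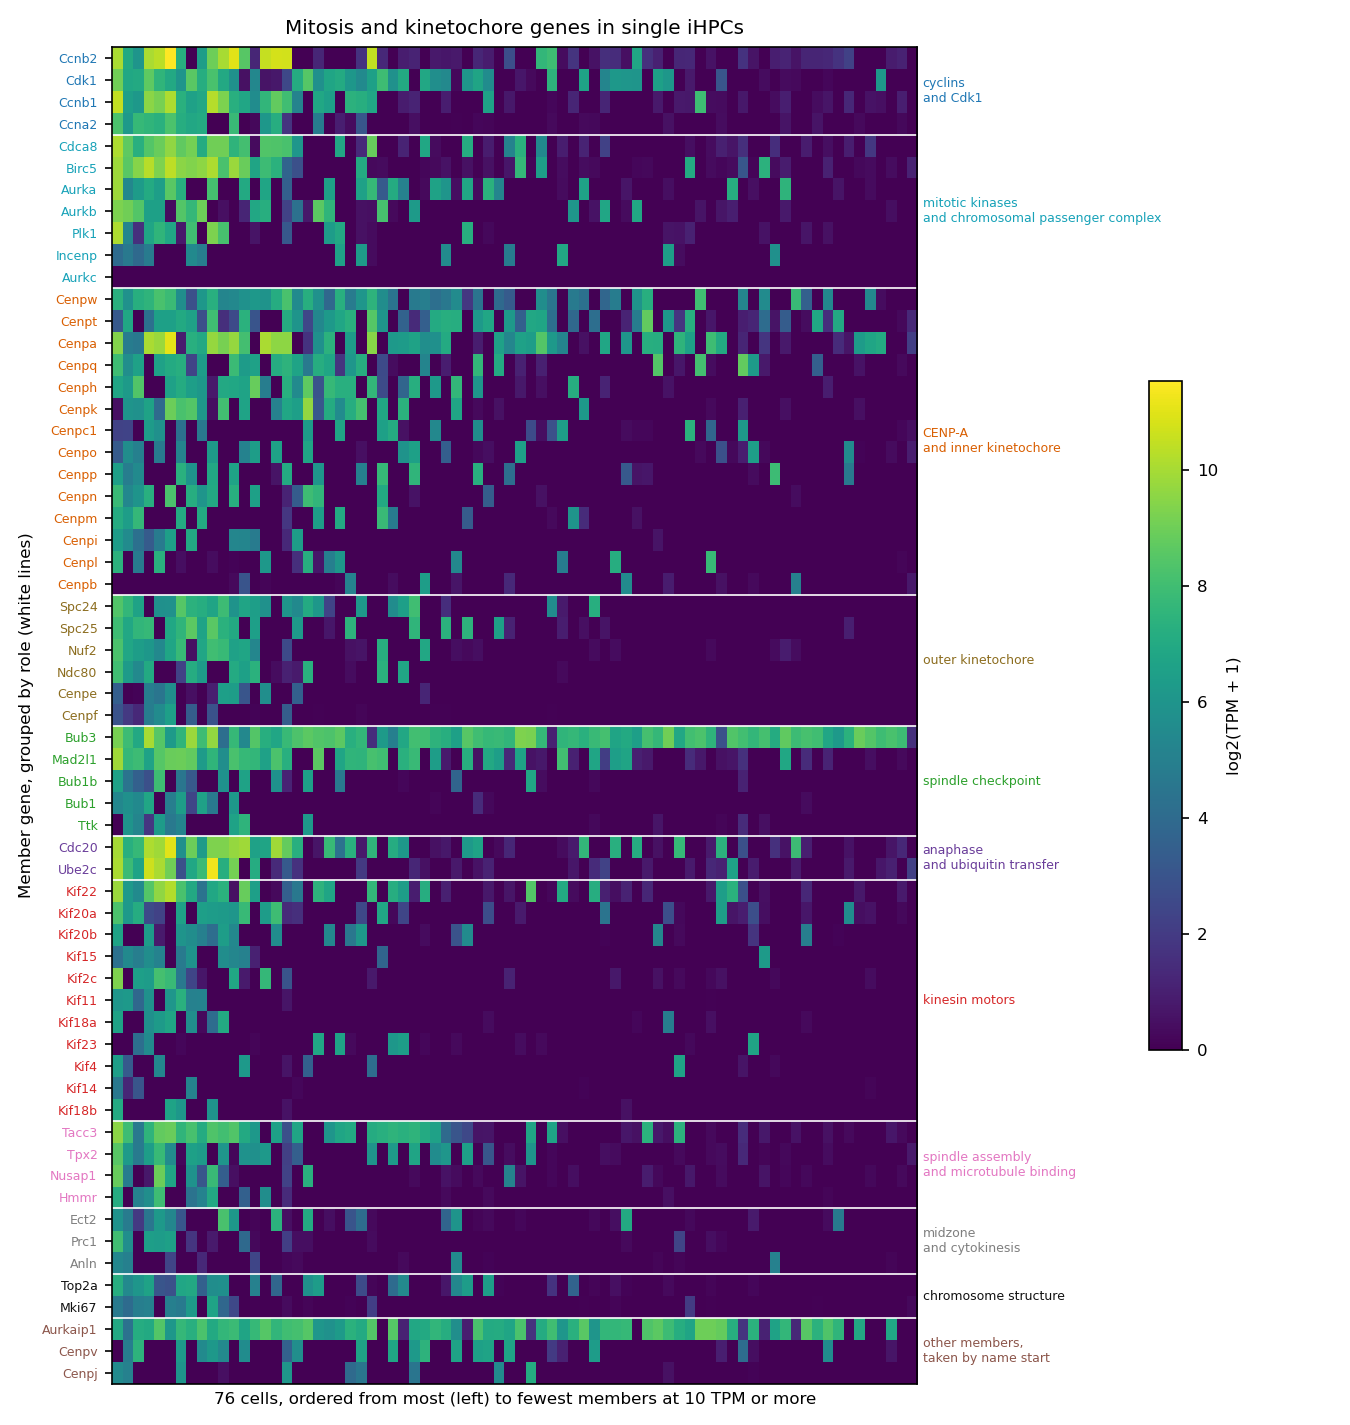
Level of each member (rows, grouped by role) in each of the 76 cells (columns, from most members at 10 TPM or more on the left to fewest on the right), as log2(TPM + 1) in colour. Bub3 and Aurkaip1 fill nearly the whole width, while most rows are bright in about 13 columns at the left and sparse beyond.

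The cyclins and Cdk1 differed in how widely they were found. Cdk1, the kinase of mitotic entry, was detected in 41 cells (53.9%, exact 95% interval 42.1 to 65.5%), 39 of them at 10 TPM or more, with a median of 38.1 TPM and a highest value of 517 TPM. Ccnb2, cyclin B2, was also detected in 41 cells, but in only 19 at 10 TPM, with a median of 1.19 TPM and its 3 highest values at 2947, 2033 and 1761 TPM. The same count of cells therefore covered different distributions: Ccnb2 lay between 1.07 and 5.85 TPM in 22 of its 41 cells and between 62.7 and 2947 TPM in the other 19, while Cdk1 had a median of 92.8 TPM where detected, against 3.62 TPM for Ccnb2. Ccnb1, cyclin B1, reached 1 TPM in 29 cells and 10 TPM in 25, with a median of 0.612 TPM and a highest value of 1430 TPM. Ccna2, the cyclin A of S phase and early mitosis, reached 1 TPM in 15 cells, with a median of 0 and a highest value of 307 TPM. In 16 cells none of the 4 was detected.

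Low values were more frequent in cells that shared part of their title. Each title held a letter and a number, which may be positions on a plate, though the labels do not say so. Values of 1 member in 1 cell were pooled over the 54 members with a highest value of at least 100 TPM. In cells sharing the letter of the member's highest cell, 112 of 457 values (24.5%) lay above 0 and under 10 TPM. The share was 18.4% of 364 values in cells sharing its number and 12.9% of 3229 values in other cells. Members with the same highest cell count the same cells again, so these values are not independent. The part of such low values in counts at 1 TPM was not tested, and the counts at 10 TPM leave them out.

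Of the mitotic kinases and the chromosomal passenger complex, Cdca8 (borealin) and Birc5 (survivin), which place the complex on the centromere, were detected in 31 and 26 cells. Cdca8 had a median of 0.340 TPM and a highest value of 1093 TPM, and Birc5 a median of 0.262 TPM and its 3 highest values at 1339, 1267 and 1108 TPM. Where detected, Birc5 had a median of 269 TPM, the highest such median among these kinases and passenger proteins. Aurkb, the kinase of that complex, was detected in 20 cells and Incenp, its scaffold, in 13, with highest values of 617 and 120 TPM. Aurka, the Aurora kinase of centrosomes and the spindle, was detected in 25 cells, in 24 of them at 10 TPM or more, with a median of 0 and a highest value of 913 TPM. Plk1, the Polo kinase, was found in 14 cells, up to 1116 TPM. Aurkc, the Aurora kinase best known from meiosis, was listed at 0 in all 76 cells, which by 3 counts allows a share of up to 3.95% of cells in which it would be detected. Since a 0 can be a missed transcript, this limits detection and not expression. All of Cdca8, Aurka, Aurkb and Plk1 were highest in the same cell, C3.

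CENP-A and the inner kinetochore held the most widely detected kinetochore genes. Cenpw and Cenpt, histone-fold partners that link the centromere to the outer kinetochore, were detected in 51 and 50 cells, and Cenpa, the centromeric histone H3 variant, in 48 (63.2%, interval 51.3 to 73.9%). Cenpw had a median of 24.3 TPM and a highest value of 301 TPM, and Cenpt a median of 8.69 TPM and a highest value of 433 TPM. Cenpa had a median of 52.7 TPM and reached 2104 TPM in cell F7, with 1067 and 1063 TPM in the cells after it. Cenpw and Cenpt, found in more cells, had no value that high. The other 11 genes of this group were found in 6 to 31 cells. Cenpq was found in 31 cells, against 17 each for Cenpo and Cenpp, with which its protein forms a subcomplex. Cenph was found in 28 and Cenpk in 24, against 13 for Cenpm and 12 for Cenpi, although their proteins form a complex together. Cenpc1, the scaffold CENP-C, was found in 18 cells, and Cenpn and Cenpl, whose proteins bind the CENP-A nucleosome as a pair, in 16 and 12. Cenpb, which binds a repeat in centromeric DNA, was found in 6, at up to 84.2 TPM. Only 3 cells held none of the 14.

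The 6 outer kinetochore genes had a median of 15 cells (13.5 at 10 TPM), close to the 17.5 cells (15 at 10 TPM) of the inner group, and 43 cells held none of the 6. Of the 4 subunits of the Ndc80 complex, which grips the microtubule, Spc24 was detected in 26 cells (highest 359 TPM), Spc25 in 19 (highest 394 TPM), Nuf2 in 16 (highest 311 TPM) and Ndc80 in 14 (highest 254 TPM). All 4 medians were 0, and the highest values of the 4 lay close together. Cenpe, a kinetochore kinesin, was detected in 10 cells, and Cenpf, a very large kinetochore protein, in 9, of which 3 reached 10 TPM.

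Among spindle checkpoint genes, Bub3 stood apart. Bub3, which carries Bub1 and BubR1 to kinetochores, was detected in all 76 cells and reached 10 TPM in 72, from 1.07 TPM to 1045 TPM with a median of 220 TPM. Mad2l1 (Mad2), the checkpoint's inhibitor of Cdc20, was detected in 43 cells; its median was 1.69 TPM and its highest value 937 TPM. Bub1b (BubR1), which acts with Mad2, was detected in 16 cells, with a median of 0 and a highest value of 242 TPM. The kinases Bub1 and Ttk (Mps1) were found in 11 and 10 cells. Bub3 was thus found in every cell, and Bub1 and Bub1b, which it carries, each in fewer than 20.

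Cdc20, which activates the anaphase-promoting complex (APC/C), was detected in 36 cells (32 at 10 TPM). Its median was 0.779 TPM, and its 3 highest values were 2040, 1098 and 1015 TPM. Ube2c, the ubiquitin-conjugating enzyme of that complex, was detected in 25 cells but in 13 at 10 TPM, with a median of 0 and a highest value of 2518 TPM in cell F5, followed by 1602 and 1068 TPM. Like Ccnb2, Ube2c combined a few very high cells with many near the threshold.

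Of 11 kinesins, Kif22, a chromosome-binding motor, was the most widely detected, in 32 cells; its median was 0.510 TPM and its highest value 1160 TPM. Kif20a and Kif20b, motors of the central spindle and of cytokinesis, were found in 24 and 17 cells, at up to 306 and 101 TPM, both with medians of 0. The other 8 were found in 4 to 13 cells. Kif15 and Kif11, which push spindle poles apart, were found in 13 and 8 cells, and Kif2c, which disassembles microtubule ends, in 11, at up to 628 TPM. Kif18a, which restrains chromosome movements, was found in 8, Kif23, a motor of the midzone, in 7, and the chromosome-binding Kif4 in 7. Kif14 and Kif18b were found in 4 cells each. No kinesin reached 38 cells.

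Tacc3, a spindle protein phosphorylated by Aurora A, was detected in 35 cells (median 0.617 TPM, highest 724 TPM). Tpx2, which activates Aurora A on the spindle, was detected in 23 (median 0, highest 368 TPM), and the microtubule-binding Nusap1 in 11 (median 0, highest 481 TPM). Hmmr, a spindle and centrosome protein, was found in 10 cells. At the midzone, Ect2, which activates RhoA for the cleavage furrow, was found in 17 cells (highest 300 TPM), Prc1, which bundles midzone microtubules, in 9 (highest 253 TPM), and the furrow scaffold Anln in 7 (highest 44.3 TPM), all with medians of 0. Top2a, which untangles sister DNA, was found in 23 cells at up to 146 TPM, and Mki67 (Ki-67), which coats mitotic chromosomes, in 12 at up to 102 TPM. Ki-67 protein is a usual marker of proliferation, but only its mRNA was measured here. Mki67 was detected in a smaller share of cells (15.8%) than Cdk1, which was found in 53.9%. The Mki67 transcript is also longer (10061 against 4375 bases), and the part of length in this contrast was not tested.

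The name rule also took 3 genes that belong to no mitotic role group here. Aurkaip1, which was named for binding Aurora A and works in mitochondrial ribosomes, was detected in 68 cells, with a median of 144 TPM. Cenpv, a centromere-associated protein, was found in 22, and Cenpj, a centriole growth factor, in 9. With these left out, the median per cell stood at 11 members.

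**Figure D3:**
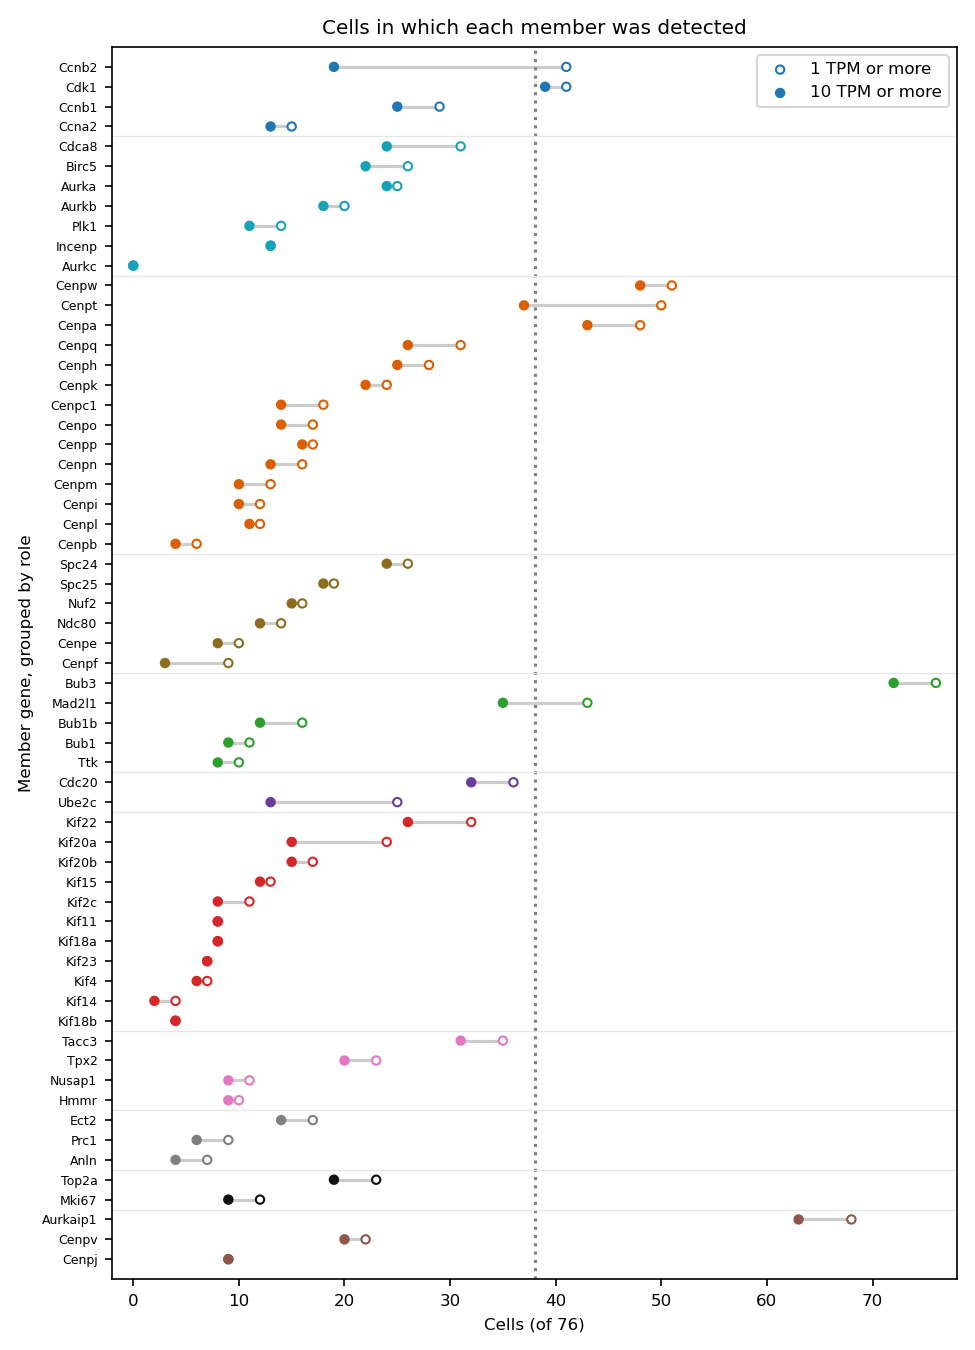
Number of cells (of 76) in which each member reached 1 TPM (open circles) or 10 TPM (filled circles), grouped and coloured by role; the dotted line marks 38 cells. Bub3 stands at 76, most members lie left of the line, and Ccnb2 and Ube2c show wide gaps between the thresholds, 41 against 19 and 25 against 13 cells.

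A cell held a median of 12.5 members at 1 TPM (range 2 to 55, SD 13.2, n = 76 cells) and of 8.5 at 10 TPM (range 0 to 51). At 10 TPM, 41 cells held 0 to 10 members, 22 held 11 to 23, none held 24 to 30, and 13 held 31 to 51. At 1 TPM the same 13 cells held 33 to 55 members and C2, with 20 members at 10 TPM, stood among them with 39. F4 came next with 27. C2 shares its letter with C3, and some of its members lay under 10 TPM where C3 was high. Plk1 stood at 8.01 TPM in C2 and 1116 TPM in C3, and Ube2c at 8.69 and 1068 TPM. The part of such low values in the count of C2 was not tested. These 13 cells, marked off by the empty range seen in these counts, carried 57.6% of the summed TPM of all members over the 76 cells. They were chosen by the same member values that are summed, so a large share was bound to follow. The sum in a cell had a median of 1165 TPM, from 14.5 TPM in cell F11 to 19537 TPM in cell C3. C3 was the highest cell for 18 members and F7 for 7. A high count did not always go with a high sum: B9 held 47 members at 10 TPM with a sum of 4791 TPM, and G7 44 with 4827 TPM, while F7 held 39 with 16722 TPM and F5 33 with 12344 TPM.

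Of 10 core mitotic genes (Ccna2, Ccnb1, Ccnb2, Cdk1, Plk1, Aurka, Aurkb, Cdc20, Birc5 and Ube2c), 7 cells held none at 1 TPM (9.21%, exact interval 3.78 to 18.1%), and 20 held none at 10 TPM (26.3%, 16.9 to 37.7%). All 10 were found together in 6 cells, or 4 at 10 TPM. One of the 6 was C2, which held 5 of the 10 genes at 10 TPM. Some pairs, named after their counts were seen, were nested. Of the 11 cells with Plk1 at 10 TPM, 11 also had Cdc20 and 11 had Cdk1 at that level, and all 13 with Ccna2 had Ccnb1. Of the 13 cells with Ube2c, 12 had Birc5 and 12 had Cdc20. Cells with Cdc20, by contrast, numbered 32, and 21 of them lacked Plk1.

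Individual cells combined mitotic and S phase genes differently. S phase genes were 34 genes of DNA replication, none of them a member. C3 had 51 members at 10 TPM, 26 S phase genes at 1 TPM and 5871 genes in all. F7 had 39 members but 10 S phase genes and 4308 genes. A3 also had 39 members, beside all 34 S phase genes and 5459 genes. C8 had 20 members, all 34 S phase genes and 5821 genes. F7 and A3 thus matched in members and lay near the opposite ends in S phase genes. Their members differed in level: Cenpa stood at 2104 TPM in F7 against 0.8 TPM in A3, Ccnb2 at 2947 against 150 TPM, and Cdc20 at 2040 against 54.8 TPM. Cenph stood closer, at 94.9 TPM in F7 and 137 TPM in A3. Top2a went the other way, with 6.2 TPM in F7 and 113 TPM in A3. At the low end, B4 had 2 members at 10 TPM, with Bub3 at 294 TPM and Ccnb2 at 0.8 TPM. These cells were picked after their values were seen.

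Among the 13 cells with most members, S phase genes ran from 10 to 34 of 34. The Spearman rho across the 76 cells between members detected and S phase genes detected was 0.59, and between members and all genes detected it was 0.55. The cells count as 1 sample, and the number of genes a cell yields moves with each of these counts. The rho values describe these cells, and the part of genes detected was not tested. Cells with title numbers 2 to 6 had a median of 14 members (37 cells) and those with 7 to 11 a median of 11 (39 cells). At 10 TPM the order was the other way, with a median of 8 for numbers 2 to 6 and of 9 for 7 to 11. The median of genes detected was 4307 for numbers 2 to 6 and 4004 for 7 to 11.

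**Figure D4:**
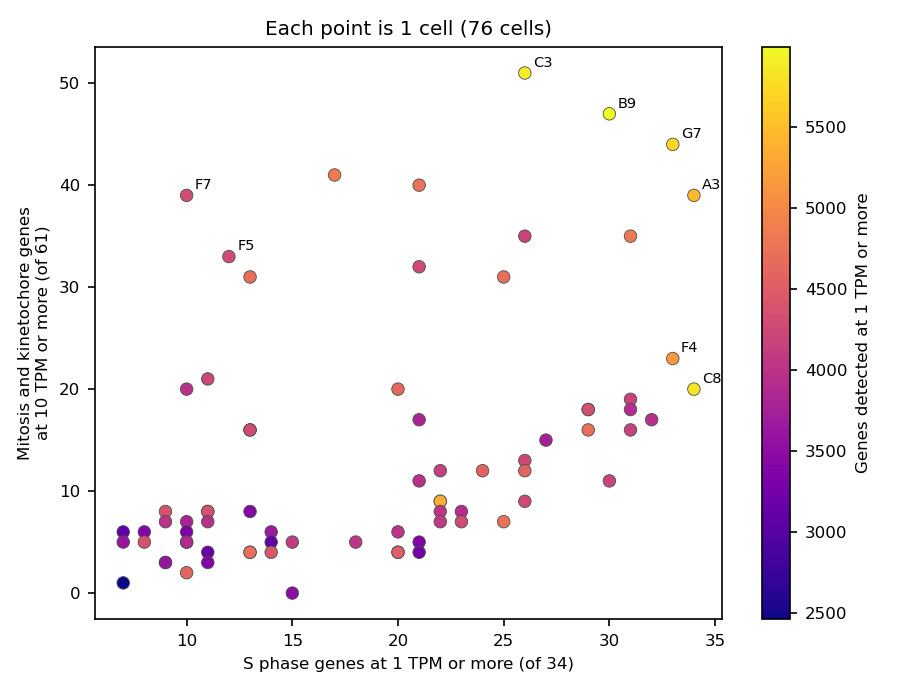
Each point is 1 of the 76 cells, by S phase genes at 1 TPM or more (of 34, horizontal) and members at 10 TPM or more (of 61, vertical), coloured by all genes detected. At 10 TPM an empty band separates 13 cells with 31 or more members from the rest, and F7 and A3 stand at 39 members with 10 and 34 S phase genes. At 1 TPM, C2 joins the 13 with 39 members, some of them low values where C3, of the same letter, is high.

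Levels of the members moved with one another across cells. For the 58 members in at least 5 cells, Spearman rho of log2(TPM + 1) averaged 0.25 over 1653 pairs, of which 1540 were above 0. With genes detected per cell regressed out of each gene, the average was 0.35. In a cell at 0 for a gene, the regressed value depends on genes detected alone. Genes at 0 in many cells can thereby share an order, so the rise from 0.25 does not show closer movement. Kif11 had the highest mean rho with the others (0.37), followed by Cenpi (0.37), Nuf2 (0.36) and Spc24 (0.36). Cenpb had the lowest (-0.05), the one value below 0, and the widely detected Bub3 and Aurkaip1 had 0.04 each. In sparse data a rho also rises where 2 genes are at 0 in the same cells.

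The pair with the highest Spearman rho was Cdca8 and Birc5, both of the chromosomal passenger complex (0.73). It was 0.75 in cells with title numbers 2 to 6, 0.73 in those with 7 to 11 and 0.75 with genes detected regressed out. At 10 TPM both were found in 18 cells, Cdca8 alone in 6, Birc5 alone in 4 and neither in 48. Bub1 and Kif11 came next (0.68), and they exceeded Cdca8 with Birc5 under other settings: 0.89 against 0.75 with genes detected regressed out, 0.85 against 0.77 by Pearson correlation, 0.82 against 0.78 with values under 10 TPM set to 0, and 0.79 against 0.73 in title numbers 7 to 11. This second pair rests on few cells, with both in 7 cells at 10 TPM, Bub1 alone in 2, Kif11 alone in 1 and neither in 66. With so many cells at 0, the regressed 0.89 can also reflect an order set by genes detected. Cenpi appeared in 5 of the 10 highest pairs, with Prc1 (0.66), Cenpe (0.64), Kif15 (0.62), Ndc80 (0.60) and Cenpf (0.59). The remaining 3 were Cdca8 with Cenpe (0.62), Cenpn with Ndc80 (0.60) and Kif11 with Mki67 (0.59). Of these 10 pairs, Cdca8 with Birc5 rested on the most cells, and the others on 2 to 10 cells holding both at 10 TPM. Aurkb, the kinase of the passenger complex, had a rho of 0.31 with Birc5. The cyclins and Cdk1 spanned 0.58 for Ccnb2 with Ccnb1, 0.33 for Cdk1 with Ccnb1 and 0.16 for Ccnb2 with Cdk1.

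The members' mean level had a rho of 0.53 with the mean of the 34 S phase genes. Regressing out genes detected gave 0.17, and it was 0.35 in cells with title numbers 2 to 6 against 0.69 with 7 to 11, so its size differed with each of these. Single members spread widely. The inner kinetochore genes Cenpk (0.52) and Cenph (0.50) and the Ndc80 complex gene Spc24 (0.50) were highest, followed by Top2a (0.46), Cdk1 (0.44), Aurkb (0.44) and Cenpm (0.43). With genes detected regressed out, Spc24 had 0.29, below Cdk1 (0.34) and Top2a (0.32). At the other end stood Cenpa (-0.18), Cenpb (-0.09), Kif2c (-0.06), Nusap1 (-0.03), Aurkaip1 (0.01) and Ccnb2 (0.02), with Birc5 at 0.11. The members' median was 0.20, against 0.06 for 9593 other genes, whose central 90% ran from -0.20 to 0.33.

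Genes of 1 structure thus spread over a wide range. Cenpa, on which the kinetochore forms, had the lowest rho with S phase genes of the 58 members. Cenpk and Cenph, which join Cenpa there, had the highest values. The other inner kinetochore genes lay between these ends, from Cenpb (-0.09) to Cenpm (0.43), and the median of the whole group was 0.23. The value of Cenpa lay inside the central range of the 9593 other genes (-0.20 to 0.33), and those of Cenpk and Cenph lay above that range. Cenpa stayed below 0 after regression on genes detected (-0.28) and in both ranges of title numbers (-0.24 and -0.11), and Cenpk (0.41, 0.42 and 0.61) and Cenph (0.44, 0.39 and 0.57) stayed above it. The genes at both ends were named after the values were seen. Outer kinetochore genes had the highest median of the role groups (0.35), and midzone and cytokinesis genes (0.11) and Cdc20 with Ube2c (0.13) the lowest. With genes detected regressed out, the outer kinetochore median was 0.10, below the inner kinetochore (0.13) and chromosome structure (0.12), and the midzone genes (-0.03) and Cdc20 with Ube2c (-0.04) were again lowest. The order of the members was shared only in part between the 2 ranges of title numbers, with a rho of 0.41 over members.

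**Figure D5:**
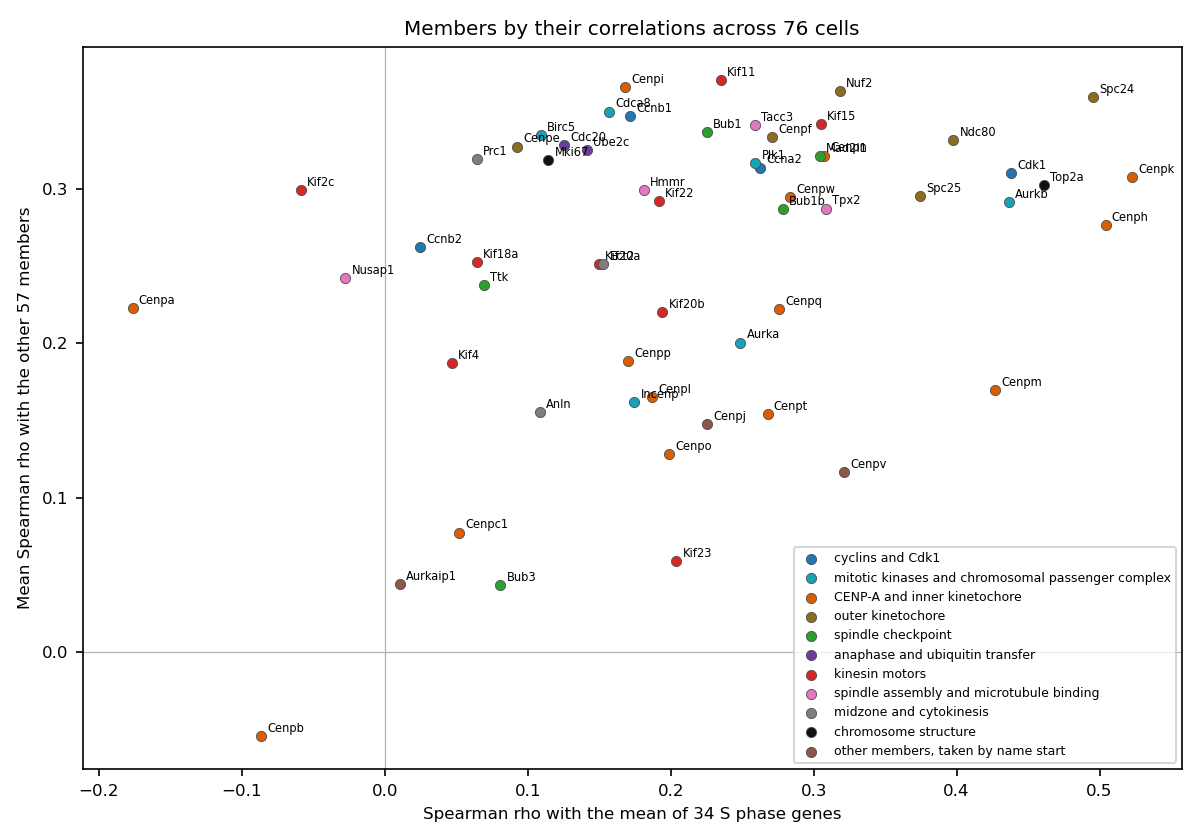
Each point is 1 of 58 members, by its Spearman rho across 76 cells with the mean of 34 S phase genes (horizontal) and its mean rho with the other members (vertical), coloured by role. Cenpk, Cenph and Spc24 lie far right at 0.50 to 0.52, Cenpa far left at -0.18, and Cenpb is the one point with a mean below 0 on the vertical axis.

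The mean level of other mitosis genes that the name rule did not take followed that of the members closely. Single genes of this list had a rho with the members' mean from -0.16 (Depdc1b) to 0.69 (Pmf1). Of 69 such genes 63 were listed, 8 of these were detected in at least 38 cells, and their mean level had a rho of 0.84 with that of the members (0.90 with genes detected regressed out). Cks1b and Cks2, small subunits of the Cdk complexes, were found in 76 and 73 cells. Espl1 (separase), which cuts cohesin, was found in 1 cell, while Pttg1 (securin), its inhibitor, was found in 54.

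Of 22 regulators of mitotic transcription, 6 were detected in at least 38 cells, and the list had a rho of 0.60 with the members (0.32 regressed). Trp53 (p53) was found in 72 cells and the MuvB subunit Rbbp4 in 67. Foxm1 was found in 1 cell, at 3.16 TPM, and Mybl2 (B-Myb) in 11, with its own rho of 0.47. E2f7, a repressor, was listed at 0 in every cell. Of the NF-Y subunits, Nfya was found in 9 cells, Nfyb in 21 and Nfyc in 52. Genes of the APC/C (14 subunits, the coactivator Fzr1 and the ubiquitin-conjugating enzyme Ube2s) were widely found, with 11 of 16 in at least 38 cells, Fzr1 in 45 and Ube2s in 68 among them, a median of 45 cells and a rho of 0.47 (0.21 regressed), led by Cdc26 in 75 cells and Anapc5 in 73. APC/C subunits were thus detected in many cells in which their activator Cdc20 was not. Cohesin genes had a rho of 0.33, with Smc3 in 61 cells and Smc1a in 41.

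The mean levels of other lists followed less. The lists differed in size, from 4 listed stromal markers to 63 other mitosis genes, and the part of size was not tested. G1 cyclins and kinases had a rho of 0.17 (-0.17 regressed), with Cdk4 in 76 cells and Ccnd2 and Ccnd3 in 74 each. Cell cycle inhibitors had 0.09, with Cdkn1a (p21) in 61 and Cdkn2d in 59. Housekeeping genes had 0.32, which became -0.12 with genes detected regressed out. The pan-haematopoietic markers had -0.04, with Arhgdib and Coro1a in 76 cells each, and the endothelial markers 0.02, with Egfl7 in 73 and Pecam1 in 24. Of the 7 listed endothelial markers, only 1 was detected in at least 38 cells, and 2, Kdr and Tek, were listed at 0 in every cell. Stromal fibroblast markers had -0.02, and 2 of the 4 listed were at 0 throughout, with Pdgfrb in 22 cells. The pluripotency markers had -0.02, and Dppa5a was the one listed gene detected, in 1 cell at 49.2 TPM.

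Outside the members, 5784 genes found in at least 20 cells were ranked by rho with the members' mean level. Tuba1b, an alpha tubulin, was nearest (0.70), followed by Pmf1 of the Mis12 kinetochore complex (0.69), Racgap1 of the midzone (0.68), the histone chaperone Asf1b (0.67), Gm6682 (0.66), the RNA-binding Lsm3 (0.66), the chromatin protein Hmgb2 (0.66), Cks1b (0.63), the clamp loader subunit Rfc5 (0.62) and the histone variant H2afz (0.61). Regressing out genes detected left Racgap1 at 0.70 and Hmgb2 at 0.65 but Tuba1b at 0.35 and Pmf1 at 0.37. Of these 10, 6 were detected in at least 65 cells, as were 2 of the 61 members, Bub3 and Aurkaip1. Tuba1b had a median of 492 TPM and H2afz of 3011 TPM. Pmf1, Racgap1 and Cks1b are also in the list of other mitosis genes.

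At the opposite end, Serf2 had a rho of -0.52, Prr13 -0.46, Ypel3 -0.43, 1500011B03Rik -0.43 and Ftl1, the ferritin light chain, -0.42. With genes detected regressed out they were -0.35, -0.31, -0.22, -0.22 and -0.20. All but 1500011B03Rik were detected in every cell. In TPM a rise in some genes lowers the shares of others, and the part of this was not tested.

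Some members share exon bases with a gene on the other strand. Kif20a shared 1271 exon bases with Cdc23, Cenpo 1221 with Adcy3, Kif4 753 with Pdzd11, Prc1 670 with Rccd1, Ube2c 592 with Tnnc2, and Ccna2 378 with Exosc9, in the RefSeq annotation of GRCm38.p6. Whether the counting used strand is not given in the sources used here, so reads of such pairs cannot be told apart. Cdc23 was found in 41 cells and Exosc9 in 43, more than Kif20a (24) and Ccna2 (15). RefSeq also names near copies of Ccnb1, Ccnb2, Kif22 and Kif4 (pseudogenes), which have no row in the table, and how the authors' tools placed reads that match both is not given in the sources used here, so the values of these 4 members carry that uncertainty.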

How the data were processed

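Per the labels' protocols, kits of Vazyme were used to amplify cDNA of single sorted iHPCs (Discover-sc WTA V2) and to build libraries (TruePrep V2). The authors deposited 1 table of TPM, with 15192 genes in 76 columns, each matched by name to 1 cell. The build was mm10, and the tools were StringTie 1.3.4, HISAT2 2.1.0, bcl2fastq and SAMtools 0.1.19, per the submitters' processing notes. Neither the annotation nor the order of steps is given in the sources used here. TPM keeps no library total, so depth is unknown.

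The members and the gene lists were chosen with earlier results of these data known. Detection was 1 TPM or more. Shares carry exact Clopper-Pearson 95% intervals, and the limit for 0 cells rests on 3 counts; both cover the counting of cells only. Spearman correlations used log2(TPM + 1), for genes in at least 5 cells, with Python 3.11.15, pandas 2.3.3, NumPy 2.4.6 and SciPy 1.17.1. Regression on genes detected was linear, on log2 values. Cells at 0 for a gene then take an order set by genes detected, which can raise or lower a rho between sparse genes. No doublet caller was run, since each library came from 1 sorted cell per the labels. Only the mean pairwise rho was checked on simulated data, made by shuffling each member across cells and adding a shared component. The regression and the other measures were not checked in this way.

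Named by rule were the 3 members of each role found in most cells and any found in none, the 10 pairs highest in rho, the members at the ends of mean rho, the 2 genes of each list found in most cells and the 10 nearest other genes among those in at least 20 cells. Other members are named to account for all 61. The genes at the ends of the S phase relation, the 5 opposite genes, other list genes named and single cells were chosen after their values were seen.

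Alternatives were other detection thresholds, Pearson correlation, regression on genes detected, a pseudocount of 0.1, members in at least 10 cells, values under 10 TPM set to 0, rescaling without 100 ribosomal-protein genes, either range of title numbers, cells with at least 3500 genes, leaving out the 3 members outside the role groups, and, added after seeing the data, leaving out the 2 cells highest in summed member TPM. Without a test, a value was taken to have moved when it changed by over 1 SD over cells (members per cell) or over members (0.0962 for mean rho, 0.150 for rho with S phase genes), by over 1.5 times (a count), or left its interval (a share). The SD over cells (13.2) exceeds the median of 12.5 members per cell, so no fall in that median could count as moved.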

Additional observations from a re-analysis of the deposited data

How the results depend on the processing

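Of 142 alternatives over 15 results, 118 left the value in place by the criteria above, 11 moved it and 13 changed its sign. The causes were not tested. The 118 include all 8 for members per cell, for which no fall could count as moved, so these do not show that the median held. No paired analysis was possible because all cells form 1 group. The median of members per cell (8.5 to 19), the mean rho among members (0.22 to 0.35), the rho of Birc5 with Cdca8 (0.71 to 0.78) and those of Cenpa (-0.28 to -0.11), Cenph (0.39 to 0.57) and Cenpk (0.41 to 0.61) with S phase genes stayed within these ranges. Members in at least 38 cells numbered 15 at any value above 0 and 5 at 10 TPM. The share of cells with no core gene was 0% at any value above 0, 23.7% at 5 TPM and 26.3% at 10 TPM. The rho of the members' mean with S phase genes was 0.17 with genes detected regressed out, 0.35 with title numbers 2 to 6 and 0.69 with 7 to 11. Spc24 with S phase genes had 0.29 regressed, and Bub1 with Kif11 had 0.89 regressed and 0.85 by Pearson correlation. Values near 0 changed sign. Nusap1 had 0.00222 with a pseudocount of 0.1 and in cells with at least 3500 genes, 0.12 by Pearson correlation and 0.15 with values under 10 TPM set to 0. Kif2c had 0.022 by Pearson correlation, 0.034 with low values at 0 and 0.059 with title numbers 7 to 11. Ccnb2 had -0.052 by Pearson correlation, -0.21 regressed, -0.012 with low values at 0, -0.050 with title numbers 2 to 6 and -0.067 in cells with at least 3500 genes. Birc5 had -0.083 regressed. Leaving out the 2 cells highest in summed member TPM, chosen after seeing the data, moved no value beyond these criteria (mean rho 0.22). With depth unknown, a member at 0 in a cell was not detected there, which does not show that it was absent.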
